A study of Mus musculus with 12 samples.

Results

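The genes described here are the 4 myogenic regulatory factors (Myf5, Myod1, Myog and Myf6) and 4 factors of muscle progenitor cells (Pax3, Pax7, Lbx1 and Met), measured in whole mouse embryos that carry the whirligig allele of Chd7. Every non-control probe whose transcript accession maps to one of the 8 symbols was taken, which gave 9 of 39429 probes on the array. 7 of the genes have 1 probe, and Pax3 has a pair. No measured value entered the choice of probes, but the genes themselves were chosen with earlier results of these data known.

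Chd7 encodes a chromatin remodelling enzyme, and the study asked which transcripts depend on it around the time that neural crest cells migrate. The groups were 4 homozygous embryos (Chd7Whi/Whi), 4 heterozygous embryos (Chd7Whi/+) and 4 wild-type embryos (Chd7+/+). All were female, at embryonic day 9.5, on a mixed C3HeB/FeJ background, and came from crosses between heterozygous parents of the whirligig line. Each embryo was separated from its yolk sac, its total RNA was extracted with Trizol, and 1 one-colour Agilent array was hybridised with it. The mutation is inherited and so present in every cell of the embryo, not only in muscle. Muscle progenitors are a small share of a whole embryo, and in such bulk RNA fewer cells of a type and less RNA per cell cannot be told apart.

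In the trunk, muscle arises from the somites, where progenitors in the dermomyotome express the paired-box factors Pax3 and later Pax7. Cells that enter the myotome switch on basic helix-loop-helix factors that bind E-boxes in muscle genes: Myf5 and Myod1 commit cells to the muscle fate, Myf6 (also called Mrf4) acts in both commitment and differentiation, and Myog (myogenin) drives terminal differentiation. Cells that leave the somite for the limbs and tongue depend on the receptor Met and the homeobox factor Lbx1.

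Myog is the member with the largest difference between genotypes below, and its promoter is a textbook target of myogenic factors, so its sequence is shown. It is RefSeq sequence of build GRCm38.p6, chr1:134289754-134290003 on the + strand, the 250 bases before the annotated start, printed 5′ to 3′. Capitals mark matches to the E-box CANNTG and to the MEF3 site TCAGGTT, a known element of muscle promoters, searched on both strands.
Myog promoter: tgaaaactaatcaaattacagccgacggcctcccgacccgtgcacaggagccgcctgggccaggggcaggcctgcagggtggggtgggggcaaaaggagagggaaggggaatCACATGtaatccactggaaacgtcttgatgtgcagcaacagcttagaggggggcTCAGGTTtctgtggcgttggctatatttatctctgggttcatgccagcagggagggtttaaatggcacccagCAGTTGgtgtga

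The E-boxes begin at -138 (CACATG) and -12 (CAGTTG) from the start, and the MEF3 match begins at -84. Of 32851 mouse promoter windows of this length, 66.2% hold a CANNTG, 11.1% hold CAGTTG, which is itself one form of CANNTG, and 3.49% hold TCAGGTT. A match describes letters in a window and is no evidence of binding in these embryos. Promoter sequences were matched for 4 of the 8 genes.

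Values below are log2 of the processed signal of a probe minus the array's own 75th percentile, so 0 is the brightness of a probe at that percentile. A probe is called detected on an array when more than 50% of its spots are well above background in the scanner's own test. The limit of detection of an array is the lowest value of any probe detected on it. An undetected probe can therefore lie above the limit. An array detected 69.2% to 75.7% of its probes and had a 75th percentile of 1095 to 1721 in processed signal. Each of the 3 slides carried 4 arrays and every genotype, but slide position 1 carried wild-type arrays alone (replicates 1, 2 and 4). The level of Chd7 itself was not analysed here and did not check the labels. Replicate numbers only name arrays, and differences were tested in one limma fit over 22568 genes or identifiers with Benjamini-Hochberg adjustment and a threshold of 0.05.

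Homozygous embryos had less Myog and Myf6 signal than wild-type embryos, while Myod1, Pax3, Pax7, Lbx1 and Met did not pass the test in any comparison. Myf5 was too dim to be tested. Between homozygous and wild-type embryos, 2 of the 7 members tested passed, both lower, where 1.35% of all genes tested passed (305 genes) and 0.864% passed as lower (195 genes). The median log2 difference was -0.02 over the members tested and 0.02 over all genes. Between heterozygous and wild-type embryos 0 of 7 members passed by limma, against 0.00886% of all genes (2 genes, with 3483 genes at an unadjusted p under 0.05). Between homozygous and heterozygous embryos 0 of 7 passed, against 0.0133% of all genes (3 genes, with 1353 at an unadjusted p under 0.05).

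**Figure D1:**
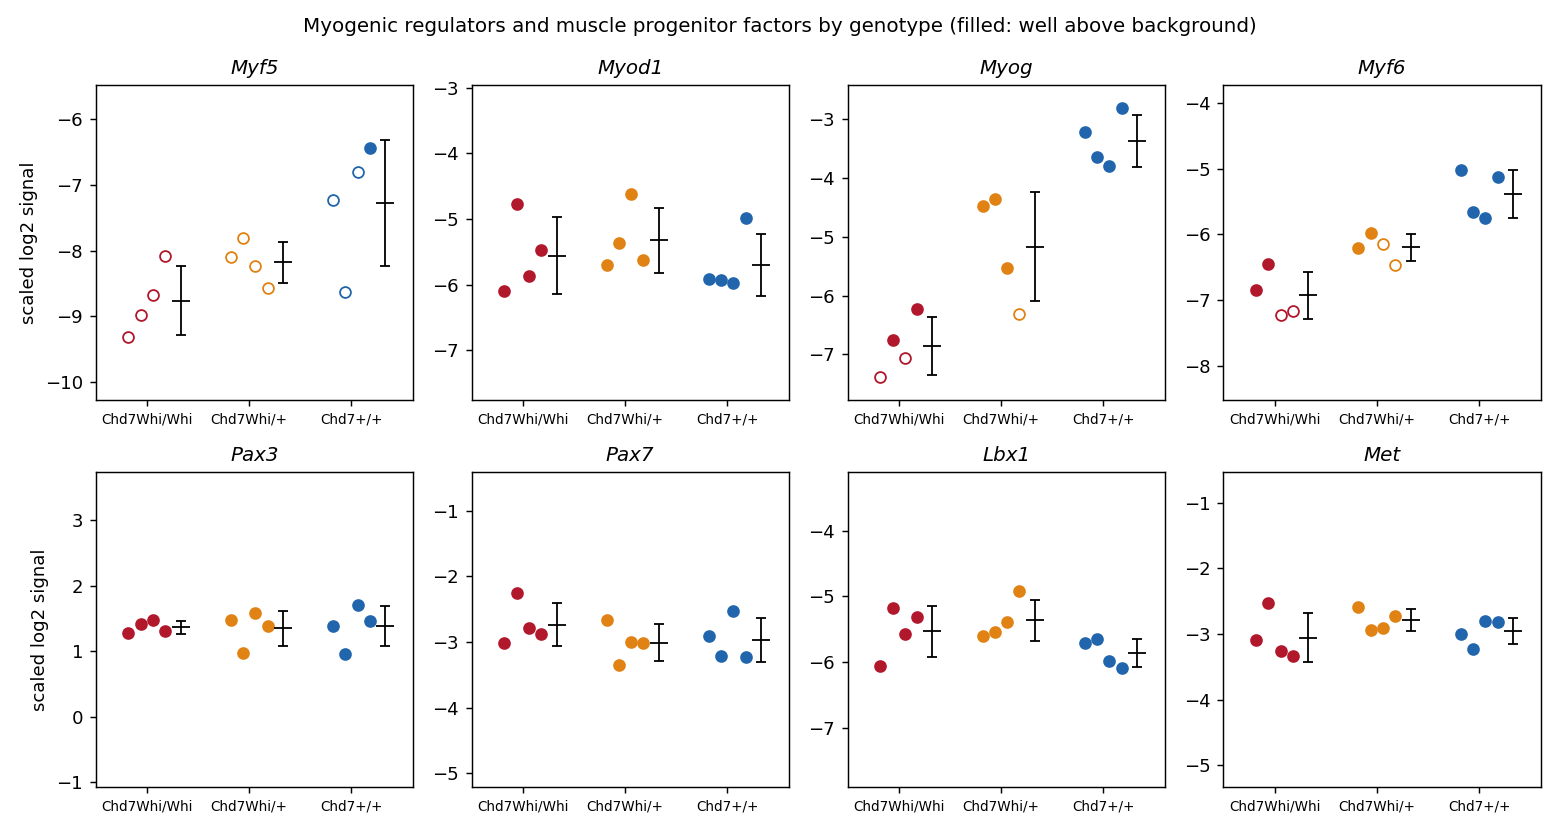
Scaled log2 signal of the 8 genes (y axis) in each embryo, by genotype (x axis), with the mean and SD of 4 arrays beside the points. Filled points are arrays on which the probe was detected. For Pax3 the brighter probe is drawn. Every wild-type Myog value lies above every mutant value, and the Pax3, Pax7 and Met points of the 3 genotypes overlap.

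Myog, the differentiation factor, was the member that differed most. Its probe (A_51_P102122, NM_031189) gave -7.38, -6.76, -7.05 and -6.23 in Chd7Whi/Whi embryos, -4.48, -4.37, -5.53 and -6.31 in Chd7Whi/+ embryos, and -3.22, -3.64, -3.80 and -2.82 in Chd7+/+ embryos. All 4 wild-type values lie above all 8 mutant values, and the heterozygous and homozygous values overlap only through heterozygous replicate 4, the lowest of its group. The probe was detected on 2 of 4 homozygous, 3 of 4 heterozygous and 4 of 4 wild-type arrays.

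The Myog mean was -6.85 ± 0.49 in Chd7Whi/Whi embryos and -3.37 ± 0.44 in Chd7+/+ embryos (SD, n = 4 each), a log2 difference of -3.48 ± 0.41 (SE), or 11.2-fold lower, with an adjusted p of 0.00167 by limma. It entered the test only through the wild-type arrays, where it was detected throughout. With the undetected homozygous arrays set at their limit of detection, the homozygous mean was -6.69. With normexp background correction the difference was -1.60 (adjusted p = 0.00504 by limma), so the size of the fold depended on the background correction. The offset of 50 that normexp adds shrinks differences of dim probes. The 95% interval of the difference ran from -4.38 to -2.59. Within slides the difference was -4.15, -3.04 and -3.81, and at the only slide position holding both genotypes, position 3, it was -3.41. Each of these values rests on 1 or 2 arrays per genotype, and position 3 held 1 wild-type array. On slides 1 and 3 the only wild-type array lay at position 1. With position as a term in the fit the adjusted p was 0.284, and with the number in the sample titles as a term it was 0.0801 at a difference of -3.35.

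In heterozygous embryos the Myog mean was -5.17 ± 0.92 (SD, n = 4). The difference from wild type was -1.80 ± 0.41 (SE), which had an unadjusted p of 0.00093 and did not pass adjustment by limma (adjusted p = 0.237). The difference between homozygous and heterozygous embryos was -1.68 ± 0.41, which did not pass either (adjusted p = 0.39 by limma). The heterozygous mean lay 0.06 below the midpoint of the other genotypes on the log2 scale, with a 95% interval from -0.83 to 0.72. That midpoint rests on a homozygous mean near the limit of detection, with the probe detected on 2 of 4 homozygous arrays. With normexp the difference from the midpoint was -0.22. Heterozygous replicates 1 and 2 were nearest to the wild-type range, and replicate 4 lay inside the homozygous range.

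The Myog probe is printed as several spots on each array, which gives a second view of the same hybridisations. In Chd7Whi/Whi embryos the processed signal of single spots ran from 5.19 to 25.8, and 16 of 38 spots were well above background. In Chd7Whi/+ embryos it ran from 10.2 to 72.9, with 32 of 39 spots above background. In Chd7+/+ embryos it ran from 92.8 to 248, with 39 of 39 spots above background, so that no mutant spot reached the dimmest wild-type spot. Spots of an array share its RNA and are not replicates of a genotype.

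**Figure D2:**
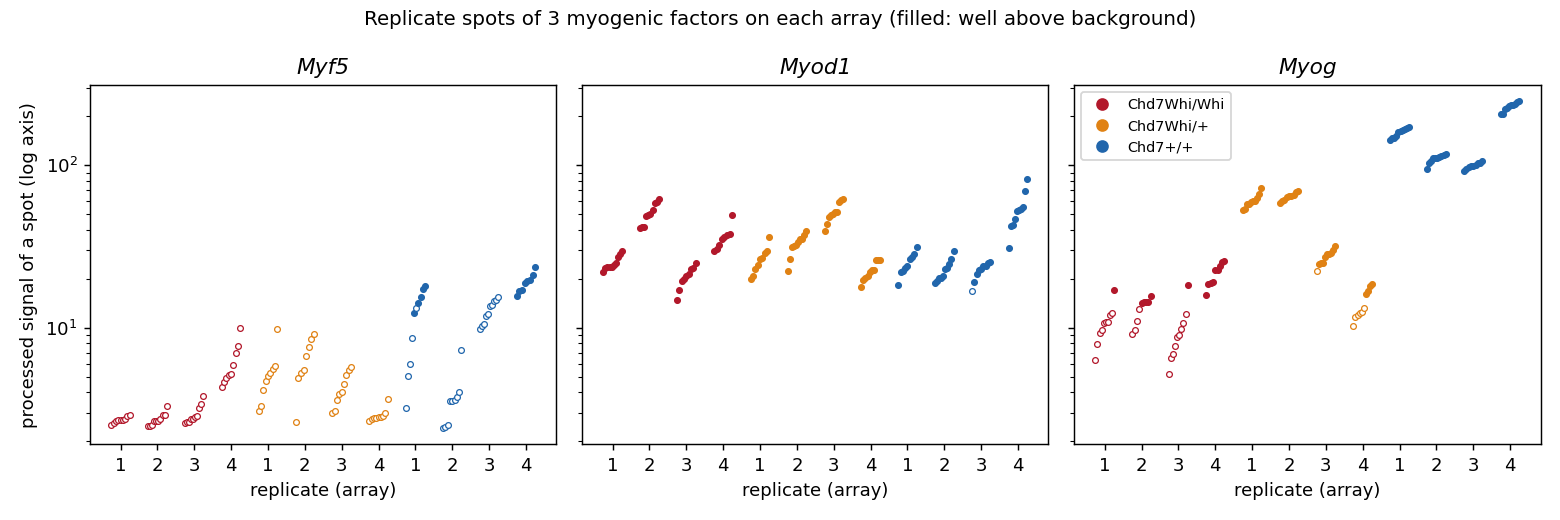
Processed signal of each replicate spot (y axis, log scale) of Myf5, Myod1 and Myog, by array (x axis, replicates 1 to 4 of each genotype), with spots of an array in order of brightness. Filled points are spots well above background. Myog spots of wild-type arrays lie between 92.8 and 248, above all spots of mutant arrays, whereas the ranges of Myod1 spots overlap between the 3 genotypes.

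Myf6, which acts in commitment and differentiation, followed the same order of genotypes. Its probe (A_51_P386794, a single spot per array) gave -6.85, -6.45, -7.23 and -7.17 in Chd7Whi/Whi embryos, -6.20, -5.97, -6.15 and -6.46 in Chd7Whi/+ embryos, and -5.02, -5.65, -5.75 and -5.12 in Chd7+/+ embryos. The wild-type values do not overlap either mutant group, and the mutant groups touch at -6.45 and -6.46. The difference between homozygous and wild-type embryos was -1.54 ± 0.21 (SE), or 2.91-fold lower (adjusted p = 0.00407 by limma).

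Like Myog, Myf6 was tested only because all 4 wild-type arrays detected it, and it was detected on 2 of 4 homozygous and 2 of 4 heterozygous arrays. The homozygous mean was -6.92 as measured and -6.64 with the undetected arrays set at their limit of detection, against -5.38 in Chd7+/+ embryos. Within slides the homozygous difference was -1.83, -0.76 and -2.08, and at slide position 3 it was -1.29, each again from 1 or 2 arrays per genotype. The heterozygous difference from wild type was -0.81 ± 0.21 and did not pass adjustment (adjusted p = 0.237 by limma), and neither did homozygous against heterozygous embryos, at -0.73 (adjusted p = 0.543 by limma). The call of Myf6 was lost with normexp background correction (-0.65, adjusted p = 0.404), with slide position as a term (adjusted p = 0.731) and with the title number as a term (-1.39, adjusted p = 0.183). Normexp adds an offset of 50, which shrinks differences of dim probes, and Myf6 spots had processed signals of 7.9 to 46.6. The normexp result therefore cannot decide whether the call holds.

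Under normexp, wild-type replicate 2 read -2.49 for Myf6, against -3.95, -4.07 and -3.89 on the other wild-type arrays, and it was likewise the highest of the 12 arrays for Myog, Myf5, Myod1, Lbx1, Pax7 and Met. Without that array, normexp gave Myog a difference of -1.43 (adjusted p = 0.00121 by limma) and Myf6 a difference of -0.28 (adjusted p = 0.181). This pair of choices was made after seeing the data.

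Myf5, the earliest of the 4 factors to appear in the somite and the chromosomal neighbour of Myf6, was at the edge of detection. Its probe (A_51_P188281) gave -9.32, -8.98, -8.67 and -8.08 in Chd7Whi/Whi embryos, -8.09, -7.81, -8.24 and -8.57 in Chd7Whi/+ embryos, and -7.22, -8.62, -6.80 and -6.43 in Chd7+/+ embryos. Wild-type replicate 2 lies among the mutant values and the other wild-type arrays lie above them. Only wild-type replicate 4 detected the probe, so no fold is given.

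Of single Myf5 spots, 0 of 38 were well above background in Chd7Whi/Whi embryos, 0 of 35 in Chd7Whi/+ embryos and 13 of 37 in Chd7+/+ embryos. Those 13 were the 8 spots of wild-type replicate 4 and 5 of the 10 spots of wild-type replicate 1. In a fit without the filter on dim probes, the homozygous difference was -1.50 ± 0.43 (SE) and did not pass (adjusted p = 0.197 by limma). The comparison was not resolved at this brightness.

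Myod1, the other commitment factor, was detected on 12 of 12 arrays. It gave -6.10, -4.78, -5.87 and -5.48 in Chd7Whi/Whi embryos, -5.70, -5.36, -4.61 and -5.62 in Chd7Whi/+ embryos, and -5.92, -5.93, -5.97 and -4.99 in Chd7+/+ embryos. The groups overlap, and homozygous replicate 2, heterozygous replicate 3 and wild-type replicate 4 are the highest of their groups. The homozygous difference from wild type was 0.15 with a 95% interval from -0.57 to 0.86 (adjusted p = 0.854 by limma). In this fit the interval does not reach the -3.48 fitted for Myog. The Myod1 probe was dim, with a wild-type mean of -5.70 against limits of detection of -7.27 to -6.43 on those arrays. The heterozygous difference was 0.38, with an interval from -0.34 to 1.09.

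**Figure D3:**
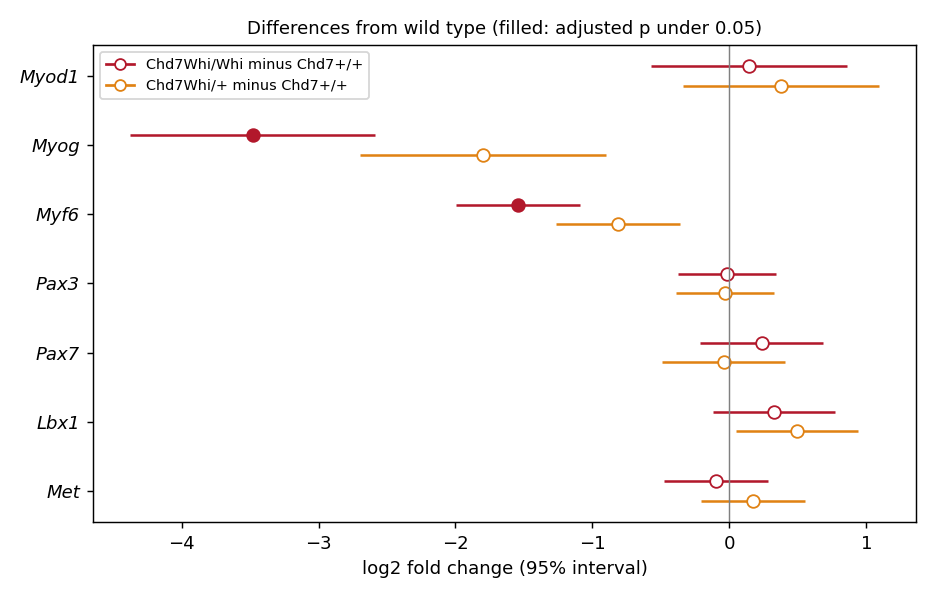
Log2 difference from wild type with its 95% interval (x axis) for the 7 members tested (y axis), homozygous above heterozygous. Filled points passed an adjusted p of 0.05. The Myog and Myf6 points of homozygous embryos, at -3.48 and -1.54, are the filled ones, and the intervals of Pax3, Pax7 and Met include 0 in both comparisons.

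Pax3, the progenitor factor that also marks dorsal neural tube and neural crest, was detected by both of its probes on 12 of 12 arrays. On the brighter probe (A_55_P2033705) it ranged from 1.27 to 1.48 in Chd7Whi/Whi embryos, from 0.97 to 1.59 in Chd7Whi/+ embryos and from 0.96 to 1.70 in Chd7+/+ embryos. The homozygous difference was -0.02, with an interval from -0.37 to 0.34, and the heterozygous one was -0.03. The second Pax3 probe (A_51_P315734) gave 0.06 and -0.18 for the same comparisons, so neither probe passed the test.

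Pax7, the paralogue that later marks satellite cells, ranged from -3.01 to -2.26 in Chd7Whi/Whi embryos, from -3.36 to -2.67 in Chd7Whi/+ embryos and from -3.23 to -2.53 in Chd7+/+ embryos. Its homozygous difference was 0.24 (interval -0.21 to 0.68) and its heterozygous one -0.04, and the groups overlap. Whole-embryo Pax3 and Pax7 signal includes neural tube and neural crest.

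Lbx1, which marks migrating limb and tongue muscle progenitors and also dorsal hindbrain and spinal cord neurons, gave -6.06, -5.18, -5.57 and -5.31 in Chd7Whi/Whi embryos, -5.60, -5.54, -5.39 and -4.91 in Chd7Whi/+ embryos, and -5.71, -5.65, -5.98 and -6.09 in Chd7+/+ embryos. All heterozygous values lie above all wild-type values, though the nearest pair is only -5.60 and -5.65. The heterozygous difference was 0.49 ± 0.21 (SE), with an unadjusted p of 0.0332 that did not pass adjustment (adjusted p = 0.293 by limma). The homozygous difference was 0.33 (interval -0.12 to 0.77).

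Met, the receptor for hepatocyte growth factor, ranged from -3.33 to -2.52 in Chd7Whi/Whi embryos, from -2.93 to -2.58 in Chd7Whi/+ embryos and from -3.22 to -2.79 in Chd7+/+ embryos. Its homozygous difference was -0.09, with an interval from -0.47 to 0.29, and its heterozygous one was 0.17. Met is also expressed in epithelia. Of 10 epithelial and liver bud markers 0 passed by limma in homozygous embryos, but 9 were higher in value, with a median of 0.32, and their summed linear level was 30.1 to 84.6 in Chd7Whi/Whi embryos and 24.0 to 48.1 in Chd7+/+ embryos. Their part in the Met value was not tested.

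With no term for slide position or title number in the fit, Hgf, the ligand of Met, fell in homozygous embryos while its receptor did not pass the test. Its probe ranged from -8.04 to -7.68 in Chd7Whi/Whi embryos, from -7.13 to -6.10 in Chd7Whi/+ embryos and from -6.05 to -5.19 in Chd7+/+ embryos, and no 2 genotypes overlap. No homozygous array detected Hgf, against 2 of 4 heterozygous and 4 of 4 wild-type arrays, so the fold is a bound, and the gene entered the test only through the wild-type arrays. It was at least 2.41-fold lower in homozygous embryos (measured means -7.78 and -5.55, adjusted p = 0.000837 by limma). For this bound the bright group was set against the limit of detection on each dim array. An undetected probe can lie above that limit, so the bound is approximate. The heterozygous difference from wild type was -0.98 (adjusted p = 0.237 by limma). Of the 12 genes of Met signalling and progenitor migration, Hgf alone passed, where 1.35% of all genes tested did. Gab1, the adaptor that docks on Met, differed by 0.30 (adjusted p = 0.275). Calls of Hgf and of the other genes outside the 8 members come from the fit without a block. Over all genes 305 passed in it, against 91 with normexp, 20 with slide position and 19 with title number as a term. Whether each of these genes kept its call is not given here.

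Among upstream and somite regulators, 1 of 13 tested passed, lower, where 0.864% of all genes did, with a median of -0.25. That gene was Meox2, a somite and limb muscle homeobox factor, which was -1.15 ± 0.30 in Chd7Whi/Whi embryos and 0.35 ± 0.29 in Chd7+/+ embryos (SD, n = 4 each, adjusted p = 0.00738 by limma). Six4, a homeobox factor of early myogenesis, differed by 0.04 (adjusted p = 0.917). Msc and Msgn1 were too dim to be tested.

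Of 16 partners and inhibitors of the myogenic factors, 1 passed, lower, where 0.864% of all genes did, with a median of -0.05. It was Twist1, a basic helix-loop-helix factor known to inhibit myogenic factors, which was 0.66 ± 0.17 in Chd7Whi/Whi embryos and 1.59 ± 0.16 in Chd7+/+ embryos (SD, n = 4 each, adjusted p = 0.00393 by limma). The E-protein Tcf12 differed by -0.54 (adjusted p = 0.141), with 3 wild-type arrays in the fit because 1 spot was left out as an outlier. Mef2c, the partner that works with Myog, differed by -0.27 (adjusted p = 0.452).

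Of 18 signals that pattern the dermomyotome, 0 passed by limma, with a median of 0.01. Wnt3a and Shh, the dorsal and axial signals that induce myotome, differed by -0.65 (adjusted p = 0.36) and -0.24 (adjusted p = 0.609).

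Of 25 skeletal muscle differentiation genes tested, 5 passed as lower and 1 as higher in homozygous embryos, with a median of 0.06. Over all genes tested 1.35% passed, and 0.864% passed as lower. Myot (myotilin, a Z-disc protein) was at least 2.36-fold lower (measured means -8.94 and -5.58, adjusted p = 9.72e-05 by limma), and Sln (sarcolipin, which inhibits the calcium pump of muscle) was lower by at least 2.44-fold (measured means -8.68 and -5.53, adjusted p = 0.00716). Neither was detected on any homozygous or heterozygous array, and both entered the test only through the wild-type arrays. Their folds are approximate bounds, set against the limit of detection as for Hgf. Tnnc2, fast-fibre troponin C, was detected on all arrays and gave -3.82 ± 0.29 in Chd7Whi/Whi embryos and -2.02 ± 0.49 in Chd7+/+ embryos (SD, n = 4 each, adjusted p = 0.0036).

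Casq2, the calsequestrin of the heart that slow fibres also express, rose by 1.04 (adjusted p = 0.00245 by limma). The remaining genes that passed, named after their values were seen, were Myh3 (embryonic myosin heavy chain) at -2.41 (adjusted p = 0.0465) and Klhl41 at -1.15 (adjusted p = 0.0424), both of which also entered only through the wild-type arrays. Actc1, the cardiac actin that both heart and early myotome express, differed by 0.16 (adjusted p = 0.943). Chrna1, Chrnd, Chrng and Ckm were too dim to be tested.

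Many differentiation genes are shared with the heart. Of 11 heart markers 0 passed in homozygous embryos, but 9 were higher in value and 2 lower, with a median of 0.25. Of the 25 differentiation genes, 15 were higher and 10 lower in value. The part of heart tissue in these values was not tested. The summed linear level of the heart markers, each scaled to the array's 75th percentile, was 64.0 to 97.6 in Chd7Whi/Whi embryos and 57.2 to 88.9 in Chd7+/+ embryos. In Chd7Whi/+ embryos it was 6.67 to 89.3, and the lowest value was heterozygous replicate 1, where the differentiation genes summed to 29.6 as well. In that genotype 21 of 25 differentiation genes lay below wild type in value, 1 of which passed (Myot), and 10 of 11 heart markers did. Without replicate 1, 13 of 25 differentiation genes and 3 of 11 heart markers lay below, and 0 of either list passed by limma. Myog on that array, at -4.48, was the second highest of its group.

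**Figure D4:**
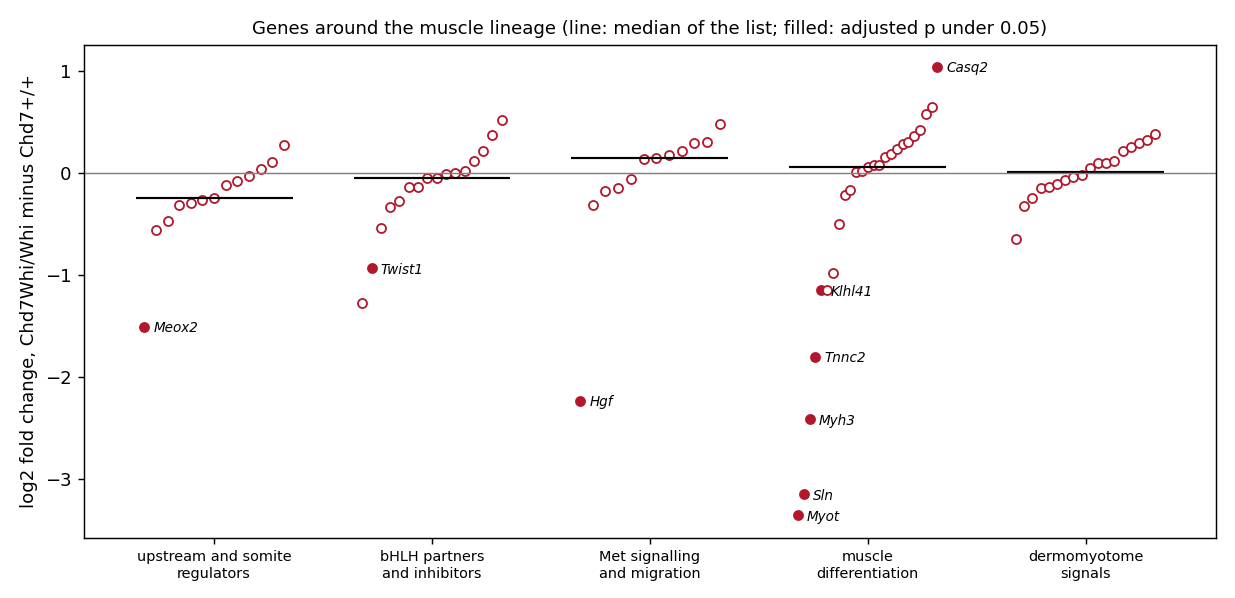
Log2 difference between homozygous and wild-type embryos (y axis) for each tested gene of 5 lists around the muscle lineage (x axis), with a line at each list's median. Filled points passed an adjusted p of 0.05 and carry the gene's name. The medians lie between -0.25 and 0.14, and the filled points are a minority of each list.

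Some markers of other tissues that express Pax3, Pax7 or Lbx1 passed the test, as did 1.35% of all genes tested. Of 11 dorsal neural tube markers, 2 fell in homozygous embryos, Zic1 by 1.53 on the log2 scale with 3 wild-type arrays in the fit (adjusted p = 0.018 by limma) and Olig3 by 1.77 (adjusted p = 0.00531), and Lmx1a differed by -0.25. Of 10 migratory neural crest markers, 2 rose, Sox10 by 1.17 (adjusted p = 0.0155) and Foxd3 by 1.33 (adjusted p = 0.0211). The crest list as a whole was evenly split, with 5 lower and 5 higher in value and a median of 0.0016. In the dorsal list 9 were lower and 2 higher in value, with a median of -0.25. The summed level of the dorsal list was 6.72 to 9.12 in Chd7Whi/Whi embryos and 6.15 to 15.5 in Chd7+/+ embryos. The wild-type array without a Zic1 value was summed without that gene, so these ranges do not compare like sums. For the crest list the summed level was 8.31 to 10.6 and 7.75 to 8.51 in the same order. The part of these markers in the Pax3, Pax7 and Lbx1 values was not tested.

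The genes whose signal followed Myog most closely over the 12 arrays, of 15019 tested genes with a symbol, were Slc9b2 (Pearson r = 0.977), Myot (0.973), Pdgfc (0.964), Nap1l5 (0.961) and Lin28b (0.959). These correlations describe arrays that share 3 genotype means, so any gene with the same order of genotypes scores high. All 5 had their lowest mean in Chd7Whi/Whi and their highest in Chd7+/+ embryos. Lin28b, an RNA-binding protein that holds back let-7 maturation, averaged 2.90 ± 0.07 in Chd7Whi/Whi, 3.32 ± 0.17 in Chd7Whi/+ and 3.73 ± 0.09 in Chd7+/+ embryos (SD, n = 4 each). Pdgfc, a platelet-derived growth factor, averaged -1.08 ± 0.16, -0.56 ± 0.29 and -0.05 ± 0.14 in the same order.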

How the data were processed

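The files hold spot intensities of 12 one-colour arrays. Intensity is the processed signal as deposited, which Agilent Feature Extraction had corrected for background, per the file headers. Its version was 10.7.3.1, per the submitters' processing notes. The deposited value table held the same intensities. Control spots (1377) and flagged spots (171 to 386 per array) were dropped, and none was saturated. Spots of a probe were averaged as log2 values after subtracting log2 of the array's 75th percentile. Of 39429 probes, 26055 were named through RefSeq (GRCm38.p6). The brightest probe of each gene was kept, and it was tested if detected on every array of 1 genotype or more. One limma 3.58.1 fit (R 4.3.3, lmFit and eBayes) held 3 genotype means over all arrays, with Benjamini-Hochberg adjustment over 22568 genes or identifiers. Unless a test is named otherwise, an adjusted p comes from this fit.

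The members and lists were chosen with earlier results of these data known. Named genes are the members, the opening pair of each list (1 gene of which is not reported here), up to 4 of each list that passed, and the 5 genes most correlated with Myog. Alternatives were normexp (offset 50, on median spot signal, since the mean signal was not used here), quantile normalization, the value table, other filters, every probe, a block for slide, position or title number, fits of only the genotypes compared, other variance models and leaving out each array. The labels call samples of a genotype biological replicates. The number of arrays limits precision. The fit was tested on simulated data with independent noise and no slide position, title number or limit of detection. That test therefore cannot decide whether calls lost with those terms hold. Figures were drawn with matplotlib 3.10.9.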

Additional observations from a re-analysis of the deposited data

Results flagged for a closer look

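Myod1 stood out on one array. Wild-type replicate 4 had a scaled log2 signal of -4.99, while the other 3 wild-type arrays lay between -5.97 and -5.92, so its gap to them took up nearly the whole range of the group (0.942 of it, past the 95% limit for 4 samples). The same array had the highest Myog and Myf5 values of the series. Of 27 groups checked this was the only one past the limit, and chance passes about 1 in 20.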

How the results depend on the processing

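Of 636 values recomputed under 25 alternatives, 554 kept their direction and side of the threshold, or for counts stayed within 1.5 times. For Myog, Chd7Whi/Whi minus Chd7+/+, the difference lay between -3.69 and -3.30 when each array was left out, and 2 of 2 called members kept their call in all 12 such fits. Position as a block gave Myog -3.41 (adjusted p = 0.284) and Myf6 -1.29, and 0 members passed. Title number as a block gave Myog -3.35 (adjusted p = 0.0801) and Myf6 -1.39, and 0 members passed. Normexp left 1 member, with or without wild-type replicate 2, and 0 passed when detection on all 12 arrays was required, because Myog and Myf6 then leave the test. In other cases the cause was not tested.

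Genes called between Chd7Whi/Whi and Chd7+/+ numbered 305, against 91 with normexp (179 also without wild-type replicate 2), 188 with no filter, 20 with position and 19 with title number as a block, 474 with only the genotypes compared, 532 with array weights, and 112 to 443 when an array was left out. For Chd7Whi/+ minus Chd7+/+ the count of 2 became 1 with normexp (with or without replicate 2), only the genotypes compared, trend and robust variance, or detection on all arrays, 5 with no filter or slide as a block, 0 with title number, and 0 to 2 without an array. For Chd7Whi/Whi minus Chd7Whi/+ the count of 3 became 0 with normexp, position, title number or only the genotypes compared, 7 with array weights, and 1 to 6 without an array.

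Differences near 0 changed sign. In Chd7Whi/Whi minus Chd7+/+, normexp gave Myod1 -0.28, Pax3 0.058, Pax7 -0.0071 and Lbx1 -0.20, quantile normalization gave Pax3 0.018, position gave Myod1 -0.014 and Pax7 -0.37, and title number gave Pax3 0.054 and Met 0.11. In Chd7Whi/+ minus Chd7+/+, normexp gave Myod1 -0.10, Pax3 0.070 and Lbx1 -0.023 and, without replicate 2, Pax7 0.062, slide gave Pax3 0.0063 and Pax7 0.020, position gave Myod1 -0.21 and Met -0.24, title number gave Pax7 0.0017, and array weights gave Pax3 0.00096. Normexp without replicate 2 put heterozygous Myf6 0.10 above the midpoint. Leaving out arrays gave -0.11 to 0.38 for Myod1 and -0.15 to 0.092 for Pax3 in homozygotes, -0.17 to 0.10 for Pax3 and -0.15 to 0.11 for Pax7 in heterozygotes, and, against the midpoint, -0.33 to 0.32 for Myog and -0.11 to 0.049 for Myf6. Replicate numbers were given in accession order and pair no samples. Every slide is shared by all genotypes, and slide as a block gave Myog -3.54 (adjusted p = 0.00517 by limma). Title number is shared only in part, since 33 and 69 occur on homozygous replicates 1 and 4 alone. With title number as a block, these arrays add nothing to the homozygous difference given above. Signal near background limits Myf5, Myf6 and mutant Myog.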
